A study of Homo sapiens with 6 samples.

Results

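The p53 targets and CDK inhibitors described here are 35 genes taken by symbol from a table of 58825 genes, and 1 identifier was found for each. All 35 passed the filter on low counts, among 19393 genes that did. They were measured by RNA sequencing in MHCC97H, an established human hepatocellular carcinoma line, in 3 libraries labelled shPTBP1 (genotype given as PTBP1 knockdown, cells carrying a short hairpin RNA against the splicing factor PTBP1) and 3 labelled shControl (genotype given as WT, with a control hairpin). Both groups share the line and the labelled tissue, liver. The labels do not say which hairpin was used, whether the cells were 1 clone, or whether the numbers 1 to 3 mark separate cultures, so p-values measure only the spread between these libraries. The question asked of the genes was whether CDKN1A differed between the groups together with the other p53 targets or without them.

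The transcription factor p53 is held low in growing cells by the ubiquitin ligase MDM2, itself a p53 target, and is stabilised after DNA damage and other stress. It then binds paired copies of a short DNA motif near its target genes, which arrest the cell cycle, repair DNA, adjust metabolism or start cell death. CDKN1A encodes p21, the target best known for arrest. p21 belongs with p27 (CDKN1B) and p57 (CDKN1C) to the CIP/KIP family, which binds cyclin-CDK complexes, while the INK4 proteins (CDKN2A to CDKN2D) bind CDK4 and CDK6. CDKN1A is also induced without p53, for example through SP1, KLF and SMAD factors, so its level alone does not report p53 activity.

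The libraries held 68704509 to 85317970 estimated counts each. PTBP1 itself, the gene the hairpin is aimed at, had 142, 138 and 150.3 CPM (counts per 1e6 counts, TMM-normalized) in the libraries labelled shPTBP1, against 175, 133 and 218 CPM in shControl, and its log2 fold change of -0.29 (SE 0.18) had an adjusted p of 0.953 in edgeR. Its paralog PTBP2 had 59.0, 62.6 and 50.5 CPM in shPTBP1, against 31.2, 28.7 and 9.20 CPM in shControl. Every shPTBP1 value of PTBP2 exceeded every shControl value, a separation found in 6.49% of all genes tested. The log2 fold change of PTBP2 was 1.32 (SE 0.41, edgeR unadjusted p = 0.0152, adjusted p = 0.718). Of 12 hepatocyte and epithelial markers only KRT8 and KRT18 averaged at least 1 CPM, and ALB, AFP, APOB, TTR and EPCAM were at 0 in every library. Red-cell markers summed to 759 to 1279 CPM in the libraries numbered 1 and 2 of both groups, against 1.15 CPM in shPTBP1 3 and 1.32 CPM in shControl 3. Leukocyte markers divided the libraries in the same way, with sums of 18.4 to 31.2 CPM against 0.222 and 0.382 CPM. Stromal markers summed to 366 to 486 CPM in shPTBP1 and to 275 to 339 CPM in shControl. In CPM this difference was carried by COL3A1 (log2 fold change 0.74, SE 0.15, edgeR adjusted p = 0.336). Of 7 stromal markers tested, 6 log2 fold changes were positive and 1 negative. The rarer DCN was at 1.05 (SE 0.76), VWF at 0.99 (SE 0.57), PDGFRB at 0.22 (SE 0.31) and PECAM1 at 0.22 (SE 1.09). COL1A1 was at 0.01 (SE 0.16), CDH5 at -0.45 (SE 0.82) and COL1A2 at 0 CPM in every library. Values within the libraries numbered 1 and 2 are therefore given beside the results that differ there, and the part of these transcripts in any result was not tested.

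CDKN1A, the p21 gene (ENSG00000124762, chr6:36676460-36687339, plus strand, hg38), had 236, 231 and 235 CPM in shPTBP1 1, 2 and 3, against 113, 111 and 144 CPM in shControl 1, 2 and 3. The 3 shPTBP1 libraries lay within a narrow range, every one above every shControl library, and the highest shControl library was number 3. The group means were 234 ± 2.85 CPM in shPTBP1 and 123 ± 18.7 CPM in shControl (SD, n = 3 each). The log2 fold change was 0.93 (SE 0.13), a 1.91-fold difference. In such bulk libraries more cells with the transcript and more of it per cell cannot be told apart. Its unadjusted p of 1.44e-04 in edgeR's quasi-likelihood test stood at place 20 of 19393 genes, and its Benjamini-Hochberg adjusted p of 0.140 did not pass 0.05. The call depended on the test and on shControl 3. DESeq2 gave the same log2 fold change with an adjusted p of 2.63e-05, edgeR without shControl 3 gave 1.07 with an adjusted p of 0.0178, and edgeR on the libraries numbered 1 and 2 gave 1.06 with an adjusted p of 0.0426. Between shPTBP1 3 and shControl 3, a pair with no test, the log2 ratio was 0.71.

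**Figure D1:**
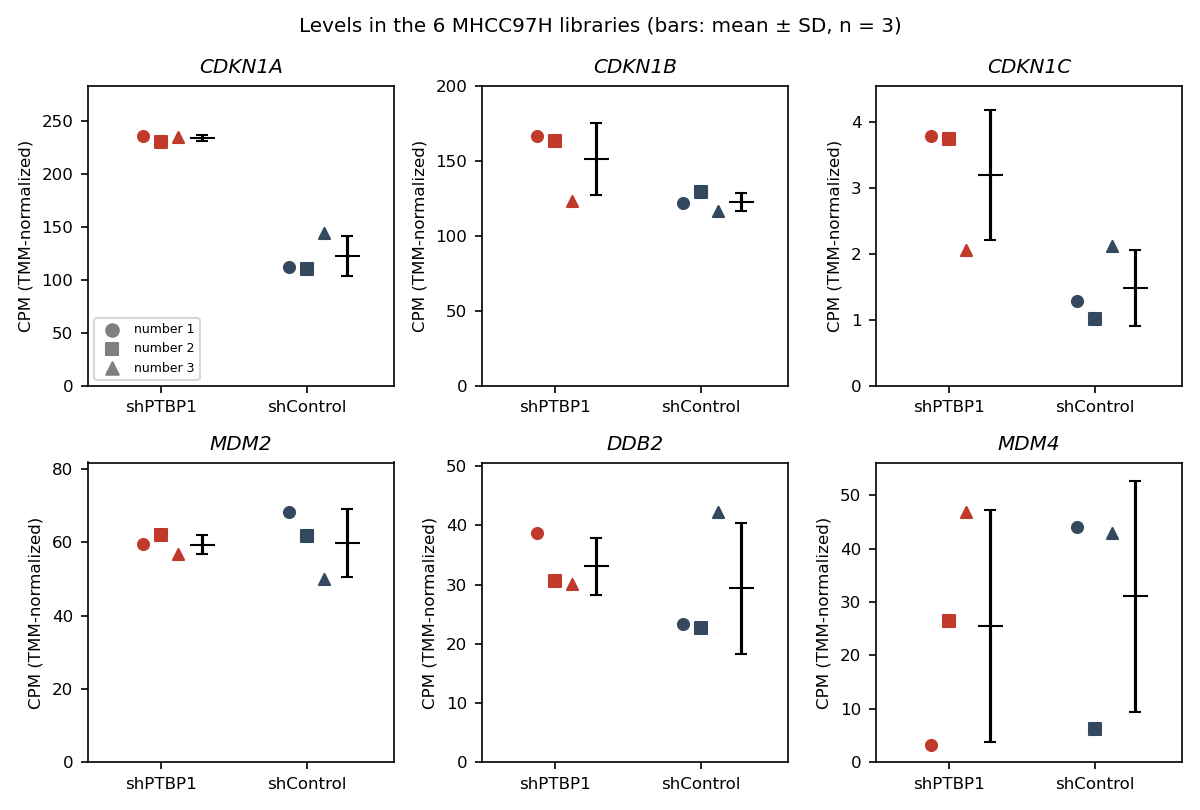
TMM-normalized CPM (vertical axes, starting at 0) of CDKN1A, CDKN1B, CDKN1C, MDM2, DDB2 and MDM4 in the shPTBP1 (left) and shControl (right) libraries, with a marker for each library number and bars for the mean ± SD (n = 3). CDKN1A lies between 231 and 236 in shPTBP1 and between 111 and 144 in shControl; the groups overlap in the other 5 genes.

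The RefSeq promoter of CDKN1A, on the plus strand at chr6:36678464-36678713 (GRCh38.p14), is shown because the gene stood apart from the other targets. The 250 bases end just before the start site. Capitals mark GC boxes, the motif GGGCGG bound by SP1 and KLF factors, of which the scan of both strands found 4 matches, the last 2 overlapping. A GC box was in 35 of 43 member promoters (81.4%), against 45% of all promoters, so having one does not set CDKN1A apart. No 10-base p53 motif was found in these letters or in the 50 bases after the start, and the p53 elements for which this gene is known lie further upstream.
CDKN1A: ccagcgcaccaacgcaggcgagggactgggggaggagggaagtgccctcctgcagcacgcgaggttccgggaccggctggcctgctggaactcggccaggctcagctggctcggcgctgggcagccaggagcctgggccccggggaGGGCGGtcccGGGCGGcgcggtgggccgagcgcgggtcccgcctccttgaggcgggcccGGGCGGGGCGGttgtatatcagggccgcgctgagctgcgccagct

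The other 23 classic p53 targets among the members did not show the CDKN1A difference. Their log2 fold changes ran from -0.998 to 0.37 with a median of -0.01, the same as the median of -0.01 over all 19393 genes, and 10 were positive and 13 negative. None of the 23 had an unadjusted p under 0.05 in edgeR, where 5.69% of all genes did. With so few genes, a count of 0 is near that share. Relative to the mean of the shControl libraries on the log2 scale, the median of the 23 genes was -0.10, 0.06 and 0.04 in shPTBP1 1, 2 and 3, against 0.17, -0.03 and -0.14 in shControl 1, 2 and 3. CDKN1A on the same scale was at 0.96, 0.92 and 0.95 in shPTBP1, against -0.11, -0.13 and 0.24 in shControl.

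Over all 35 members, 0 passed an adjusted p of 0.05 in edgeR, where 6 of 19393 genes did (0.0309%). DESeq2 called 1 member, CDKN1A, where it called 0.743% of 22471 genes with an adjusted p, and limma on log2(FPKM + 1) called 0. At an unadjusted p under 0.05 in edgeR, 2 members were higher in shPTBP1, CDKN1A and CDKN1C, against 3.58% of all genes, and 0 were lower, against 2.11%. CDKN1A was the only member whose 3 shPTBP1 values all exceeded its 3 shControl values, a separation found in 6.49% of all genes.

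**Figure D2:**
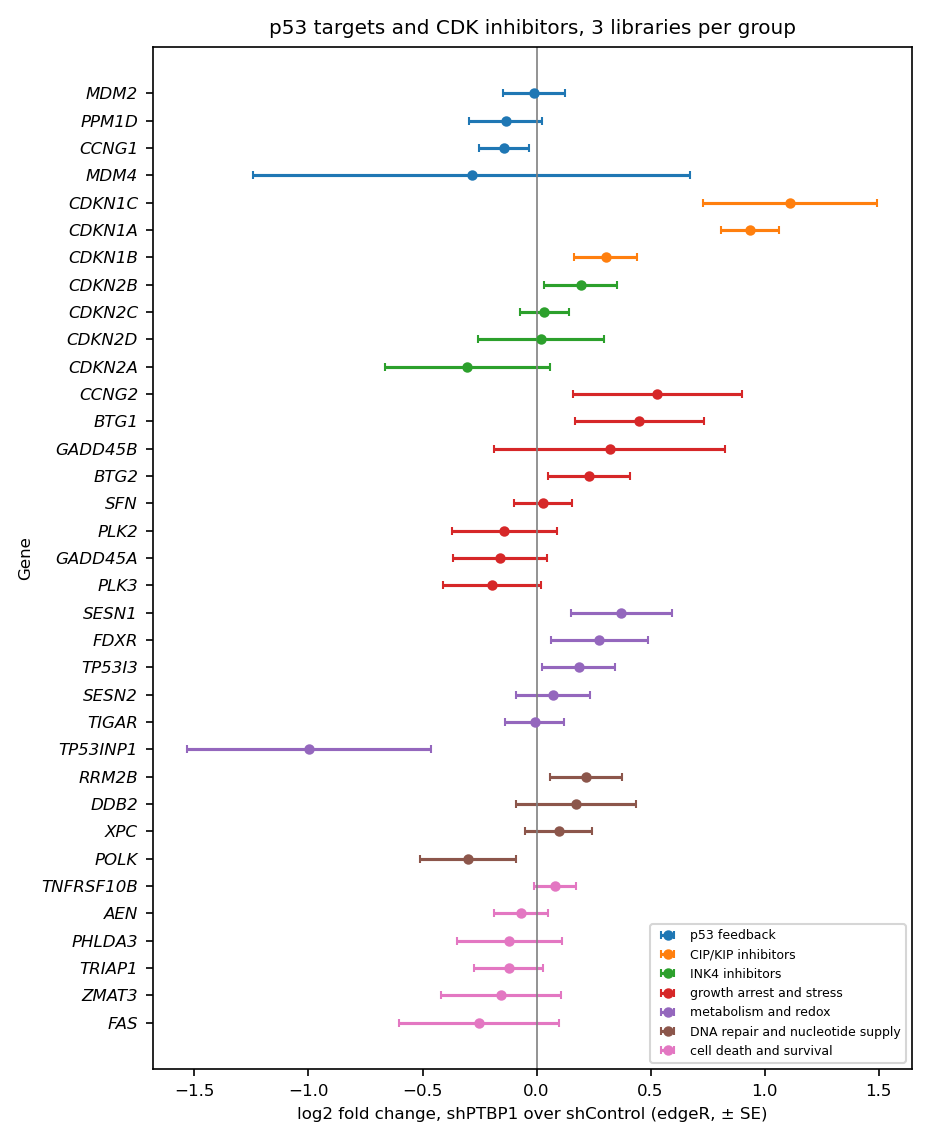
Log2 fold changes of the 35 members, shPTBP1 over shControl (horizontal axis, edgeR estimate ± SE, 3 libraries per group), with genes down the page and colours for the groups by role. CDKN1C at 1.11 and CDKN1A at 0.93 lie farthest to the right, MDM4 has the widest error (SE 0.96), and TP53INP1 at -0.998 lies farthest to the left.

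Among the 4 genes that feed back on p53 the groups overlapped, and 0 reached an unadjusted p of 0.05 in edgeR, against 5.69% of all genes. MDM2 (chr12:68808177-68850686, plus strand) had 59.4, 62.0 and 56.7 CPM in shPTBP1 1, 2 and 3, against 68.1, 61.6 and 49.9 CPM in shControl 1, 2 and 3, with a log2 fold change of -0.01 (SE 0.14). The shControl libraries spanned the shPTBP1 libraries on both sides. The log2 ratio of CDKN1A to MDM2 was 1.99, 1.9 and 2.05 in shPTBP1, against 0.73, 0.85 and 1.53 in shControl. PPM1D, a phosphatase that turns p53 signalling off, had 43.7, 43.1 and 42.6 CPM in shPTBP1, against 52.7, 52.9 and 36.6 CPM in shControl. Its log2 fold change was -0.14 (SE 0.16), and it was -0.28 in the libraries numbered 1 and 2 (edgeR unadjusted p = 0.0366). CCNG1, a cyclin that recruits a phosphatase to MDM2, had a log2 fold change of -0.14 (SE 0.11).

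MDM4, a relative of MDM2 that holds p53 inactive and is not usually counted as one of its targets, varied most among the members and followed neither the group nor the number. Its values were 3.33, 26.4 and 46.7 CPM in shPTBP1 1, 2 and 3, against 44.1, 6.16 and 43.0 CPM in shControl 1, 2 and 3. One library of each group, with different numbers, was several times below the others, and the highest value was 14.0 times the lowest. The log2 fold change of -0.28 had an error larger than itself (SE 0.96, edgeR adjusted p = 0.995).

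Of the other CIP/KIP genes, CDKN1C, the p57 gene (chr11:2883213-2885771, minus strand), was rare, with 3.78, 3.73 and 2.06 CPM in shPTBP1 1, 2 and 3, against 1.29, 1.02 and 2.12 CPM in shControl 1, 2 and 3. The libraries numbered 1 and 2 were separated, while both libraries numbered 3 were at about the same level. Its log2 fold change was 1.11 (SE 0.38, edgeR unadjusted p = 0.0220, adjusted p = 0.778), and 1.71 in the libraries numbered 1 and 2 (unadjusted p = 0.00119, edgeR). CDKN1B, the p27 gene (chr12:12715058-12722369, plus strand), had 167, 164 and 124 CPM in shPTBP1, against 122, 129.5 and 117 CPM in shControl. shPTBP1 1 and 2 lay above all shControl libraries and shPTBP1 3 among them. Its log2 fold change was 0.30 (SE 0.14, edgeR unadjusted p = 0.0635), and 0.40 in the libraries numbered 1 and 2 (edgeR unadjusted p = 0.00549).

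The groups overlapped in all 4 INK4 genes. CDKN2A, whose locus encodes p16 and the MDM2 inhibitor ARF, ranged from 26.0 to 59.1 CPM in shPTBP1 and from 32.5 to 68.3 CPM in shControl, with a log2 fold change of -0.30 (SE 0.36). CDKN2B (p15) was at 0.19 (SE 0.16), CDKN2C (p18) at 0.03 (SE 0.11) and CDKN2D (p19) at 0.02 (SE 0.28). The median over the 6 CDK inhibitors other than CDKN1A was 0.11, 5 positive and 1 negative, and in the libraries numbered 1 and 2 it was 0.32. An antisense gene of the locus, CDKN2B-AS1, overlaps CDKN2A and CDKN2B on the other strand and averaged 8.07 CPM. Whether reads were counted by strand is not given, and without it the signals of such partners cannot be told apart.

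Among the growth arrest and stress genes, 5 of 8 log2 fold changes were positive and 3 negative, where 9304 of 19393 genes were positive. An unadjusted p of 0.05 in edgeR was reached by 0 of the 8, against 5.69% of all genes. BTG1, an antiproliferative gene of the BTG/TOB family, had 72.9, 63.4 and 33.1 CPM in shPTBP1 1, 2 and 3, against 40.3, 36.0 and 47.7 CPM in shControl 1, 2 and 3. The order of the groups differed between the numbers 1 and 2 and the number 3. BTG1 had a log2 fold change of 0.45 (SE 0.28) over all libraries and 0.84 in the libraries numbered 1 and 2 (edgeR unadjusted p = 0.00141), with a log2 ratio of -0.53 in the number 3 pair. Its relative BTG2, a classic target, was at 0.23, 0.48 and -0.29 on the same 3 measures, and CCNG2, a cyclin of quiescent cells induced by FOXO factors, at 0.53, 0.95 and -0.59. The polo-like kinase gene PLK2 went the other way, at -0.14, -0.54 and 0.63, and so did GADD45A, a stress sensor, at -0.16, -0.45 and 0.45. SFN, the 14-3-3 sigma gene that keeps cyclin B-CDK1 out of the nucleus, was at 0.03 (SE 0.13) and PLK3 at -0.19 (SE 0.21). GADD45B was at 0.32 (SE 0.51), a value set by single libraries: it was 1.09 without shControl 1 (edgeR unadjusted p = 0.0183, adjusted p = 0.981) and 0.03 without shControl 3.

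The metabolism and redox targets SESN1 and SESN2 encode sestrins, which restrain mTORC1, and TIGAR encodes a phosphatase that lowers glycolysis. Their log2 fold changes were 0.37 (SE 0.22), 0.07 (SE 0.16) and -0.01 (SE 0.13). FDXR, a mitochondrial ferredoxin reductase gene, was at 0.28 (SE 0.21) and the quinone oxidoreductase gene TP53I3 at 0.18 (SE 0.16). TP53INP1, a regulator of p53 phosphorylation and autophagy, was near the limit of detection, at 0.54, 0.26 and 0.26 CPM in shPTBP1, against 1.10, 0.55 and 0.48 CPM in shControl. The lowest shControl library was below the highest shPTBP1 library, and the log2 fold change of -0.998 (SE 0.53) had an adjusted p of 0.948 in edgeR. NDUFAF6, on the other strand, overlaps TP53INP1 and averaged 27.2 CPM, against 0.533 CPM for TP53INP1.

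The DNA repair and nucleotide supply genes DDB2 and XPC recognise UV lesions, RRM2B encodes a subunit of ribonucleotide reductase, and POLK encodes a polymerase that reads past lesions. DDB2 (chr11:47214465-47239217, plus strand) had 38.7, 30.5 and 30.1 CPM in shPTBP1 1, 2 and 3, against 23.3, 22.6 and 42.1 CPM in shControl 1, 2 and 3. shControl 3 was the highest of the 6 libraries, and both other shControl libraries were the lowest. The log2 fold change was 0.17 (SE 0.26) over all libraries, and 0.59 in the libraries numbered 1 and 2 (edgeR unadjusted p = 0.0147), against a log2 ratio of -0.49 in the number 3 pair. XPC was at 0.10, 0.24 and -0.14 on these 3 measures and RRM2B at 0.22, 0.42 and -0.17. POLK was at -0.30 (SE 0.21).

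DDB2 was the only member whose RefSeq promoter window, 250 bases before to 50 after the start, held a whole p53 element, meaning a pair of 10-base p53 consensus motifs at most 13 bases apart with no mismatch. Promoters were found for 29 of the 35 members, 43 in all. A single 10-base motif was present in 6 of these 43 promoters (14.0%), against 6.63% of 35116 promoters, and the whole element in 1 (2.33%), against 10 promoters of all (0.0285%). The GC box was in 35 of 43 (81.4%), against 45% of all promoters. The 6 windows with a p53 motif follow with the motif in capitals, each on the strand of its gene, to set the sequences beside the levels of genes that did not follow CDKN1A. The coordinates are chr11:47214975-47215003 (plus strand) for DDB2, chr10:88991299-88991328 (plus) for FAS, chr15:88621296-88621325 (plus) for AEN, chr6:109009018-109009047 (minus) for SESN1, chr5:58460199-58460228 (minus) for PLK2 and chr17:74872986-74873015 (minus) for FDXR, all GRCh38.p14. In DDB2 the motifs are 1 base apart, and the first begins 6 bases into the transcript.
DDB2: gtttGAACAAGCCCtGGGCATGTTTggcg
FAS: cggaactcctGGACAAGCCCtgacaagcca
AEN: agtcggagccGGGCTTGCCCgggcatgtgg
SESN1: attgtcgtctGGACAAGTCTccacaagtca
PLK2: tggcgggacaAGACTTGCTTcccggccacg
FDXR: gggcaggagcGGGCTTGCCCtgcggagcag
Over all 6 libraries these genes had log2 fold changes of 0.17 (DDB2), -0.25 (FAS), -0.07 (AEN), 0.37 (SESN1), -0.14 (PLK2) and 0.28 (FDXR), with edgeR adjusted p of 0.953 to 0.984. A motif match is a description of the letters and says nothing of binding in these cells.

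The cell death and survival targets were near 0 or below. FAS, a death receptor, was at -0.25 (SE 0.35) and the TRAIL receptor gene TNFRSF10B at 0.08 (SE 0.09). AEN, an exonuclease gene, was at -0.07 (SE 0.12). PHLDA3, which holds back AKT, had 40.9, 43.5 and 59.3 CPM in shPTBP1 1, 2 and 3, against 64.7, 53.6 and 37.7 CPM in shControl 1, 2 and 3. The groups crossed, since the highest shPTBP1 and the lowest shControl library were both number 3. PHLDA3 had a log2 fold change of -0.12 (SE 0.23), and -0.49 in the libraries numbered 1 and 2 (edgeR unadjusted p = 0.0157). TRIAP1, an inhibitor of apoptosis, was at -0.12 (SE 0.15) and at -0.30 in numbers 1 and 2 (edgeR unadjusted p = 0.0270), and ZMAT3, an RNA-binding protein gene, was at -0.16 (SE 0.26). ACTA2, on the other strand, overlaps FAS and averaged 12.8 CPM, about the level of FAS itself at 13.5 CPM.

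**Figure D3:**
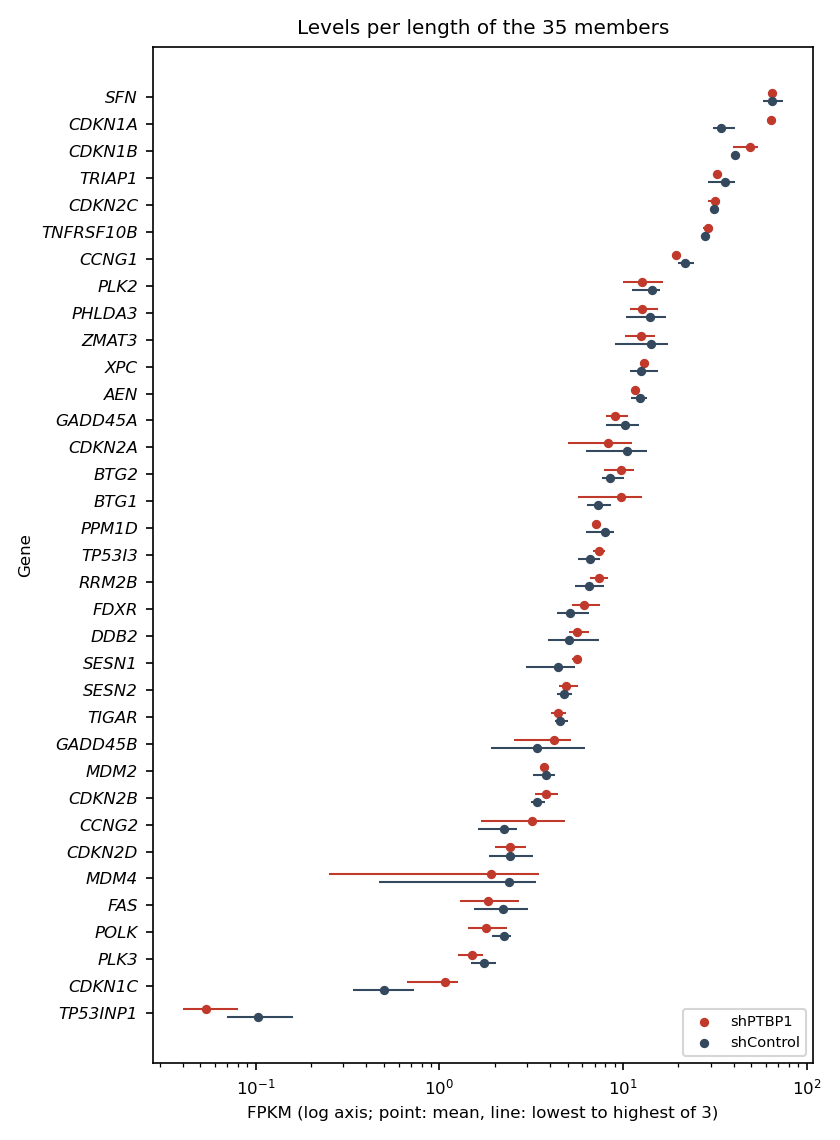
FPKM of the 35 members (horizontal log axis), with genes down the page from the highest to the lowest mean, points for group means and lines from the lowest to the highest of 3 libraries, shPTBP1 above shControl. The shPTBP1 and shControl lines are apart for CDKN1A, at 63.9 and 34.1 FPKM.

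Per length, the members spanned a wide range of levels. SFN led with a mean of 64.9 FPKM over the 6 libraries, followed by CDKN1A at 49.0, CDKN1B at 44.9, TRIAP1 at 34.2 and CDKN2C at 31.6 FPKM. At the low end were CDKN1C at 0.783 FPKM and TP53INP1 at 0.0783 FPKM. CDKN1A held a different place in this order in each group. In shPTBP1 it averaged 63.9 ± 0.601 FPKM, close to SFN at 65.0 ± 2.11 FPKM and above CDKN1B at 49.2 ± 8.24 FPKM (SD, n = 3). In shControl it averaged 34.1 ± 5.72 FPKM, against 64.9 ± 8.59 FPKM for SFN, 40.7 ± 1.91 FPKM for CDKN1B and 36.0 ± 6.21 FPKM for TRIAP1, and it did not differ from TRIAP1 beyond their spread. MDM2 was among the lower members at 3.72 ± 0.205 FPKM in shPTBP1 and 3.82 ± 0.529 FPKM in shControl.

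In many members the groups were ordered differently in numbers 1 and 2 than in number 3, and this held alike over all genes. In numbers 1 and 2, 9 of 35 members were higher in shPTBP1 at an unadjusted p under 0.05 in edgeR (10.3% of 19733 genes). At the same p, 5 of 35 members were lower (7.46% of genes). Both directions together held 14 of 35 members, against 17.7% of all genes. The share of members was thus larger than that of all genes, and the difference was not tested. The 9 were CDKN1A, CDKN1B, CDKN1C, BTG1, BTG2, CCNG2, DDB2, XPC and RRM2B, and the 5 were GADD45A, PLK2, PPM1D, TRIAP1 and PHLDA3. Classic p53 targets other than CDKN1A were thus on both sides, 4 higher and 5 lower, and only CDKN1A passed an adjusted p of 0.05 there, as did 0.319% of all genes. In the number 3 pair, 14 of 35 members had the same sign as in numbers 1 and 2 (40%), the share over all genes being 40.3%, and CDKN1A was among the 14. Of the other 8 higher members CDKN1B alone had a positive log2 ratio in the number 3 pair, at 0.08, and all 5 lower members were positive there, at 0.22 to 0.65. The matching shares among all genes at that p in numbers 1 and 2 were not computed.

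**Figure D4:**
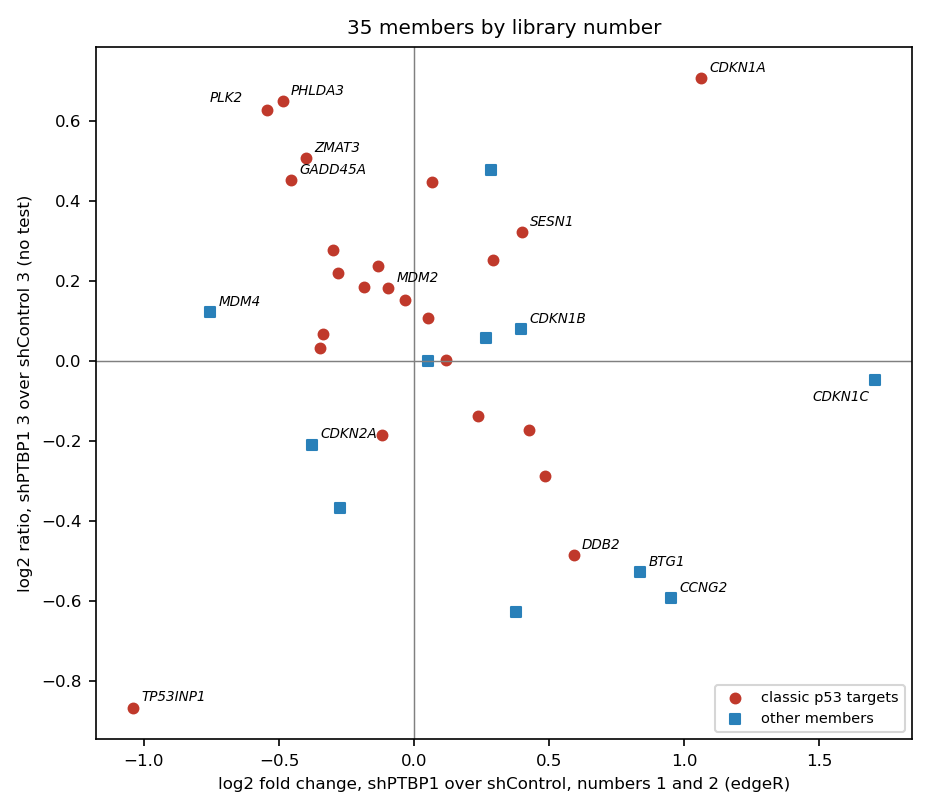
Log2 fold changes of the 35 members in the libraries numbered 1 and 2 (horizontal axis, edgeR, 2 libraries per group) against the log2 ratio of shPTBP1 3 over shControl 3 (vertical axis, 1 library each, no test), with circles for classic p53 targets and squares for other members. CDKN1A, at 1.06 and 0.71, is at the upper right, PLK2 and PHLDA3 at the upper left, and DDB2, BTG1 and CCNG2 at the lower right.

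shControl 3 lay below or above both other shControl libraries in most members, as it did in most of all genes. It was below both other shControl libraries in 16 of 35 members (45.7%), against 38.3% of all genes, and above both in 13 (37.1%), against 40.9%. Among the 23 classic targets other than CDKN1A it was below both in 12 (52.2%) and the lowest of all 6 libraries in 9 (39.1%), against 20.2% of all genes. In the cell death and survival group it was below both in 5 of 6, TNFRSF10B lying between them. For CDKN1A it went the other way, above both other shControl libraries, and this narrowed the difference between the groups. Both libraries numbered 3 also lacked the red-cell transcripts described above, and the part of this in the pattern was not tested.

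**Figure D5:**
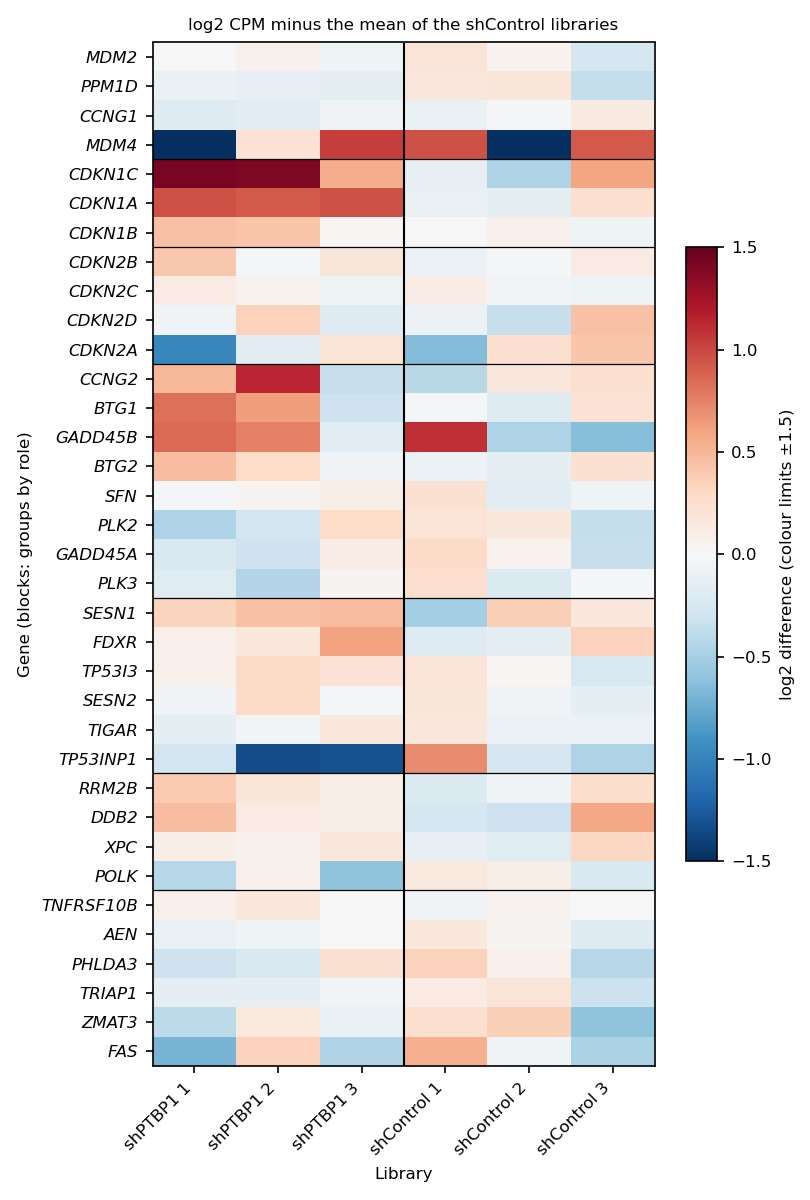
Log2 CPM of each member in each library minus the mean of the shControl libraries (colour, limits at ±1.5, beyond which the colour no longer changes), with shPTBP1 1 to 3 left of the line, shControl 1 to 3 right of it, and genes down the page in blocks by role. CDKN1A is high in all 3 shPTBP1 libraries at 0.92 to 0.96; MDM4 goes past the colour limit in shPTBP1 1 at -2.77 and in shControl 2 at -1.88.

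Other genes of the pathway were read in the same way. Of 37 further p53 targets tested, 0 passed an adjusted p of 0.05 in edgeR, 2 had an unadjusted p under 0.05 with a higher level in shPTBP1 (3.58% of all genes did) and 0 with a lower level (2.11%), and the median log2 fold change was 0.03. With so few genes, these counts are near the shares of all genes. The 2 were TRIM22, an antiviral ubiquitin ligase also induced by interferon, at 1.49 (SE 0.51, unadjusted p = 0.0218, edgeR), and GDF15, a secreted stress cytokine also induced through ATF4, at 0.42 (SE 0.15, unadjusted p = 0.0271, edgeR). GDF15 had 81.2, 88.0 and 100.2 CPM in shPTBP1, against 73.9, 54.5 and 72.6 CPM in shControl, without overlap. Groups that did not overlap were found in 5 of the 37 genes with shPTBP1 higher, against 6.49% of all genes. They were found in 2 of the 37 with shPTBP1 lower, against 1058 of 19393 genes.

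Among 23 members and regulators of the p53 family, 0 passed the adjusted threshold in edgeR, and 2 were higher at an unadjusted p under 0.05 (3.58% of all genes). These were HIPK2, a kinase that phosphorylates p53, at 0.60 (SE 0.19, unadjusted p = 0.0144, edgeR), and the low p53 relative TP63 at 0.95 (SE 0.34, unadjusted p = 0.0250, edgeR). Of 23 factors known to act on CDKN1A, 0 passed the adjusted threshold in edgeR, and 2 were higher in shPTBP1 at an unadjusted p under 0.05 (3.58% of all genes), among them KLF4, known to induce CDKN1A, at 0.41 (SE 0.17, unadjusted p = 0.0447, edgeR). The median over these 23 was 0.12.

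Downstream of p21 are CDKs and the cell cycle genes repressed through the DREAM complex, whose repression p53 and p21 promote. The 17 cyclin, CDK and pocket protein genes that passed the filter had a median log2 fold change of -0.04. In edgeR an unadjusted p under 0.05 was reached by 0 of them, against 5.69% of all genes. Of 15 genes repressed through p53, p21 and DREAM, 13 log2 fold changes were negative and 2 positive, with a median of -0.09, where 10089 of 19393 genes were negative. In edgeR 0 passed the adjusted threshold and 1 was lower in shPTBP1 at an unadjusted p under 0.05 (2.11% of all genes). shControl 3 was below both other shControl libraries in 12 of these 15 genes (80.0%), against 38.3% of all genes.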

How the data were processed

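RNA of 6 MHCC97H libraries was sequenced after poly(A) selection. The authors deposited 1 table of estimated counts and FPKM (fragments per kilobase and per 1e6 fragments) per gene and library. Per the labels, reads were handled with cutadapt 1.9, FastQC, HISAT2 2.2.1 and StringTie on hg38; settings are not given in the sources used here. The deposited counts were whole numbers, but 32.5% to 34.4% of those from 1 to 40 were multiples of 4, so they were treated as estimated counts, and the number of sequenced fragments behind them is unknown.

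The test was that of edgeR 4.0.16 under R 4.3.3 (TMM, filterByExpr, quasi-likelihood F test, Benjamini-Hochberg over all genes tested, threshold 0.05), after a check on simulated counts. A standard error is the absolute log2 fold change divided by the square root of F. Alternatives were DESeq2 1.42.0, RLE scaling, no filter, limma 3.58.1 on log2(FPKM + 1) and log2(FPKM + 0.1) for genes averaging at least 1 FPKM, the library number as a block, number 3 as a covariate, numbers 1 and 2 only, and each library left out. Promoters are from RefSeq (GRCh38.p14).

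Members, lists, markers and alternatives were chosen with earlier results of these data known. All members could be named, and from other lists at most 4 genes with the smallest p; exceptions are stated. Some genes are not reported here.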

Additional observations from a re-analysis of the deposited data

How the results depend on the processing

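The log2 fold change of CDKN1A was positive under every alternative run, at 0.87 to 1.07 when each library was left out in turn, and only the threshold changed: edgeR adjusted p was 0.0178 without shControl 3 (1.07) and 0.366 to 0.548 without any other library. DESeq2 gave 0.93 (adjusted p 2.63e-05) and the libraries numbered 1 and 2 gave 1.06 in edgeR (adjusted p 0.0426). Over all genes the deviations of same-numbered libraries correlated at only -0.00909, 0.158 and 0.0832, so the numbers were not taken to pair the samples, although some transcripts, those of red cells among them, followed the number in both groups. With the number as a replicate block, CDKN1A was at 0.94 (edgeR adjusted p 0.594) and 0 genes were called, against 6 in the reported fit. Under the block CDKN2A, lower in shPTBP1 in all 3 numbered pairs, was at -0.31 with an unadjusted p of 0.0457 in edgeR, against 0.427 as reported, and CDKN1C was at 1.14 with 0.0594, against 0.0220; both had an adjusted p of 0.956. The other counts of called genes were 167 in DESeq2, 3 with number 3 as a covariate, 63 in numbers 1 and 2, and 2 to 136 when a library was left out, 136 without shControl 3. Members called numbered 0 in the reported fit, 1 in DESeq2, 1 in numbers 1 and 2, and 0 to 1 with a library left out; the call was CDKN1A each time.

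The median of the CDK inhibitors other than CDKN1A, 0.11 as reported, was 0.32 in numbers 1 and 2 and 0.07 to 0.26 with a library left out. Of 472 comparisons of the other 34 members with alternatives, 21 changed sign after rounding to 2 decimals, in 11 genes. The other 451 did not, and values that rounded to 0 are among these 451. None of the 34 passed the adjusted threshold in any fit. SFN was at -0.03 in numbers 1 and 2. With a library left out, MDM2 ran from -0.13 to 0.09, MDM4 ran from -1.06 to 0.23, CDKN2C ran from -0.02 to 0.09, CDKN2D ran from -0.16 to 0.27, SFN ran from -0.05 to 0.15, SESN2 ran from -0.05 to 0.17, TIGAR ran from -0.09 to 0.08, FAS ran from -0.63 to 0.06, AEN ran from -0.16 to 0.01, PHLDA3 ran from -0.31 to 0.07 and ZMAT3 ran from -0.40 to 0.02. CDKN1C and TP53INP1 were too low for the limma fits. Depth was 68704509 to 85317970 estimated counts per library.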

Other observations

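DRAM1, a lysosomal p53 target that promotes autophagy and is not among the 35 genes, had 29.3, 32.0 and 189 CPM in shPTBP1 1, 2 and 3, against 217, 197 and 45.6 CPM in shControl 1, 2 and 3. The libraries numbered 1 and 2 and those numbered 3 were ordered in opposite ways. DRAM1 was named after its values were seen. Over all libraries its log2 fold change was -0.88 (SE 0.85, edgeR adjusted p = 0.975), and in the libraries numbered 1 and 2 it was -2.76 (edgeR adjusted p = 0.0352), the only one of the further p53 targets past the adjusted threshold there. MKI67, the proliferation marker Ki-67, also named after its values were seen, had 188, 184 and 236 CPM in shPTBP1, against 286, 360 and 95.0 CPM in shControl, with shControl 3 the lowest of the 6 libraries and a log2 fold change of -0.28 (SE 0.43). In numbers 1 and 2 MKI67 was at -0.79 (unadjusted p = 0.00205, edgeR adjusted p = 0.107).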
